A study of Mus musculus with 4 samples.

Results

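The mRNA levels of 36 mouse genes that encode enzymes of glycolysis, pyruvate handling and the tricarboxylic acid (TCA) cycle were followed through oocyte maturation with and without tubastatin A (TubA). The genes were listed by symbol, matched to the deposited table by Ensembl identifier, and all 36 were found among its 21957 genes. They divide into 16 cytosolic genes running from hexokinase to lactate dehydrogenase, 18 genes of mitochondrial proteins running from the pyruvate carrier to malate dehydrogenase, and the cytosolic dehydrogenases *Idh1* and *Mdh1*, which are given apart.

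TubA inhibits HDAC6, a deacetylase that works mainly in the cytoplasm. All oocytes came from PMSG-primed B6D2F1 (C57BL/6 x DBA) females 6 to 8 weeks of age and were freed of cumulus cells. Germinal vesicle (GV) oocytes were untreated and taken at 0 h. The other 3 groups were cultured in M16 medium for 12 h, without TubA (MII), with 10 μM TubA (TubA-10) or with 20 μM TubA (TubA-20). The TubA doses are those of the sample titles and of the study's methods, while the treatment field of the labels has TubA-10 at 20 μM and TubA-20 at 11 μM, which turns the order of the doses. MII oocytes were taken only when they had a polar body, and no such selection is stated for the TubA groups, so TubA and the stage reached cannot be told apart. Whether the MII group received the DMSO in which TubA was dissolved is not given in the sources used here. Each condition was 1 library from a pool of 100 oocytes, so there is no spread between replicates, no test was possible, and every difference below compares libraries.

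Glycolysis splits glucose into pyruvate in the cytosol, and lactate dehydrogenase interconverts pyruvate and lactate. Pyruvate enters the mitochondrion through a carrier, is turned into acetyl-CoA by the pyruvate dehydrogenase complex and is oxidised in the TCA cycle. The mouse oocyte is known for relying on pyruvate and for using glucose poorly by itself, while the surrounding cumulus cells carry out glycolysis and pass pyruvate on. Fully grown oocytes do not transcribe, so mRNA levels during maturation change mainly through decay and through the length of the poly(A) tail.

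Levels are given as FPKM (fragments scaled to transcript length and to the mapped fragments of the library), which is per length and allows genes to be set side by side. Differences are log2 ratios of FPKM + 1, which understate the change of genes with low values. A gene is called higher or lower when that ratio passed 2-fold. The background is the share of the 10898 genes with at least 1 FPKM in at least one library that passed 2-fold. Summed over all genes, FPKM came to between 568330.8 (MII) and 627340.4 (TubA-20). By the step between low values, MII and TubA-10 had 1.64 and 1.66 times the depth of GV and TubA-20 had 0.896 times. The read totals stated in the paper place TubA-20 slightly above GV instead, so the order of these libraries by depth depends on the measure. All 12 oocyte markers were above 1 FPKM in every library, with sums of 16750 to 22400. Single oocyte markers moved both ways between GV and TubA-20. *Figla* went from 90.5 to 12.41 FPKM, *Zp1* from 910.5 to 428.7, *Zp2* from 753.3 to 292.6 and *Zp3* from 2454 to 972.9. *Gdf9* went from 1774 to 3822 and *Oosp1* from 2700 to 6213. The 15 cumulus and granulosa markers summed to 12.35 to 19.22 with *Foxl2* at 0 throughout, and of 8 blood markers only *Cd68*, of macrophages, reached 1 FPKM, at 1.626 to 2.261 in the 4 libraries. Of those cumulus and granulosa markers, 3 in GV, 3 in MII and 3 and 5 under TubA-10 and TubA-20 reached 1 FPKM, and single markers moved with culture. *Inha* was at 7.502 FPKM in GV and 0.2387 to 0.3143 in the cultured libraries, *Inhba* and *Fshr* were also highest in GV (0.9557 and 0.4169), and *Cyp19a1* was at 6.135 in GV and 7.415 to 10.3 after culture. *Kitl*, at 0.952 in GV and 2.028 to 2.747 after culture, and *Tnfaip6* and *Ptx3*, both at 0 in GV and at 1.571 and 1.194 in TubA-20, were higher in at least one cultured library. The part of these markers in the comparisons with GV was not tested.

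One gene dominated the pathway. *Ldhb*, the heart-type lactate dehydrogenase subunit (chr6:142490249-142507957, GRCm38, minus strand), stood at 3481 FPKM in GV, 6148 in MII and 6073 and 6913 under TubA-10 and TubA-20. It ranked 5 among all genes in GV and 4 in the other libraries, and held 0.558% of all FPKM in GV and 1.03% to 1.1% after culture. The 36 genes together came to 5006.8 FPKM in GV and 7115.5, 7208.3 and 7824.0 in MII, TubA-10 and TubA-20, with *Ldhb* included. Without it the other 35 came to 1526, 967.3, 1135 and 910.6 FPKM, which is 0.634, 0.744 and 0.597 of the GV sum in MII, TubA-10 and TubA-20. The pathway total and the sum of the other 35 genes therefore ran in opposite directions from GV to the cultured libraries. Single genes did not all follow that sum, and 12 of the 36 had log2 ratios above 0 against GV in each cultured library. In pooled oocytes, fewer cells with an mRNA and less of it per cell cannot be told apart. The median of the 36 genes was 29.8, 16.5, 14.3 and 12.9 FPKM in the order GV, MII, TubA-10, TubA-20, beside 10.6, 9.86, 10.2 and 9.03 for the background genes. Of the 36, 32 reached 1 FPKM in at least one library, and the 4 that did not were *Hk1*, *Hk2*, *Aldoc* and *Idh2*.

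**Figure D1:**
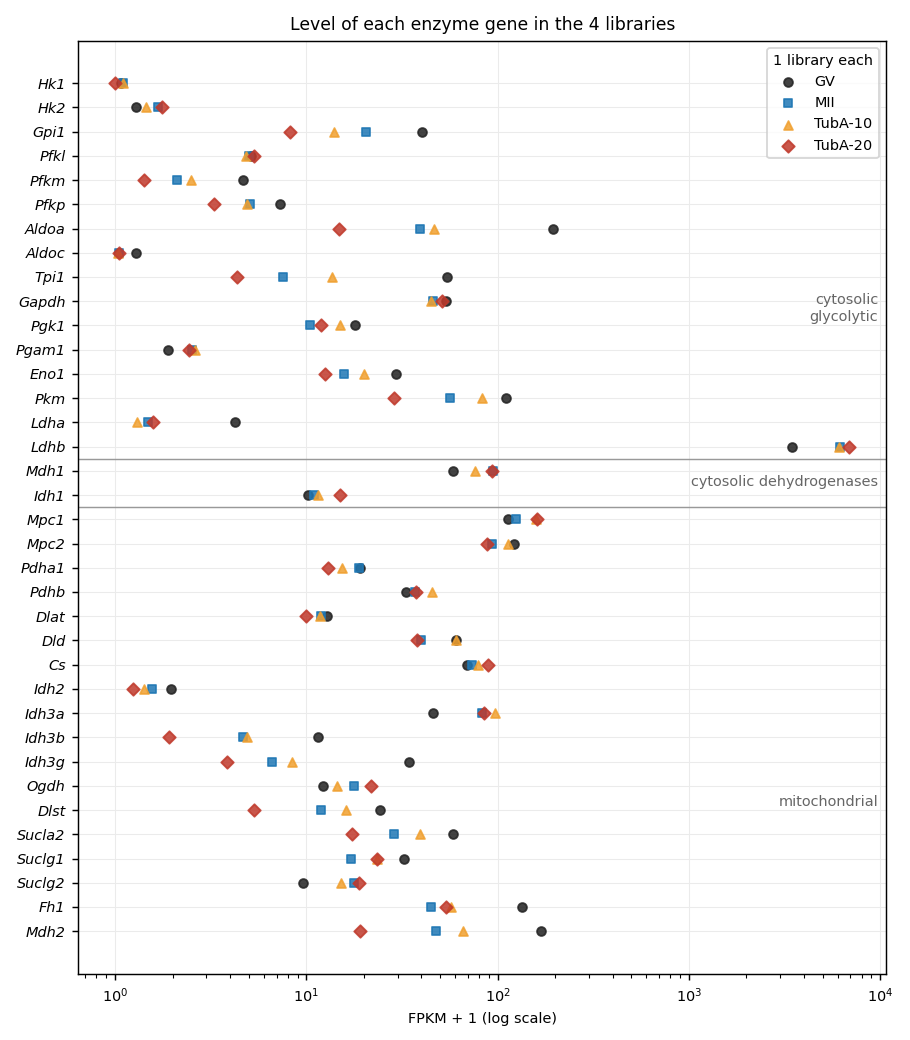
FPKM + 1 of the 36 genes (log axis), in pathway order from top to bottom, with 1 point for each of the 4 libraries. *Ldhb* lies apart at 3481 to 6913 FPKM, and the GV point is farthest right for *Aldoa*, *Tpi1*, *Idh3g*, *Fh1* and *Mdh2*.

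The tails of the mRNAs are shown because the libraries were made from poly(A)-selected RNA and because maturing oocytes lengthen the poly(A) tails of mRNAs with a cytoplasmic polyadenylation element. The letters TTTTAT or TTTTAAT were searched on the mRNA strand in the last 100 bases of the principal transcript's 3′ UTR (GENCODE vM21, GRCm38). They were present in 4 of the 36 genes (11.1%) and in 2049 of 10131 background genes (20.2%). Those 10131 are the background genes with an annotated 3′ UTR of at least 100 bases, here and in the other tail results below. The 30-base windows of the 4 matches follow, 5′ to 3′, with the matched letters in capitals. They lie at chr12:31331291-31331320, minus strand (*Dld*), chr10:128362450-128362479, plus strand (*Cs*), chr1:65158635-65158664, minus strand (*Idh1*) and chr1:175600374-175600403, minus strand (*Fh1*).
Dld: cttagtaatgtTTTTAATcttagtaaatgg
Cs: taaaaataataaatgtTTTTATtaacaatg
Idh1: taaactgttaaTTTTAATtaaaatgaagta
Fh1: gcaaaataaagtttaTTTTATaaaagaaaa

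The ends of a pair of genes with log2 ratios above 0 but under 2-fold in MII against GV (0.82 for *Ldhb*, 0.70 for *Mdh1*) and of a pair called lower (*Aldoa*, *Idh3b*) are shown for comparison as the last 30 bases of the annotated transcript. Capitals mark AATAAA, the polyadenylation signal, which was found in the last 100 bases of 23 of the 36 genes (63.9%) and of 66.5% of background genes. None of these 4 ends holds the cytoplasmic element letters in its last 100 bases. They lie on the minus strand at chr6:142490249-142490278 (*Ldhb*), chr11:21556787-21556816 (*Mdh1*), chr7:126795234-126795263 (*Aldoa*) and chr2:130279309-130279338 (*Idh3b*).
Ldhb: tgatcaAATAAAgttagcaattgcagcata
Mdh1: ttactcagtgcAATAAAtaaccataatctc
Aldoa: cactgccAATAAAcaactatttaaggggga
Idh3b: atagtcAATAAAcaaaatacacacatacta

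The 4 genes with the letters did not share a direction from GV to MII. *Cs* and *Idh1* had log2 ratios of 0.08 and 0.11, *Dld* −0.62 and *Fh1* −1.59. Among background genes the median log2 ratio was 0.40 for those with the letters and −0.03 for those without. A match is a description of letters in this window, and *Ldhb*, *Idh3a*, *Suclg2* and *Mdh1* were the 4 genes with the highest log2 ratios from GV to MII without holding one.

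The first question was how the cytosolic enzymes changed from GV to MII without TubA. The hexokinases, which carry out the first step of glycolysis, were close to the limit of what these libraries show. *Hk1* was at 0.0711, 0.107, 0.102 and 0 FPKM in the order GV, MII, TubA-10, TubA-20 (kept for all runs of 4 values below), and *Hk2* at 0.285, 0.683, 0.453 and 0.751. *Gpi1*, which turns glucose-6-phosphate into fructose-6-phosphate, was at 39.5 FPKM in GV, 19.6 in MII and 12.9 and 7.25 under TubA-10 and TubA-20. Its 4 levels fell in that order, with log2 ratios against GV of −0.98 (MII), −1.54 (TubA-10) and −2.30 (TubA-20).

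Phosphofructokinase, the main control point of glycolysis, is built from 3 genes that together came to 14.0 FPKM in GV, 9.19 in MII and 9.27 and 7.08 under TubA-10 and TubA-20. *Pfkl*, the liver form, stayed between 3.87 and 4.36 FPKM in the 4 libraries. *Pfkm*, the muscle form, was at 3.66, 1.11, 1.49 and 0.422 FPKM, and *Pfkp*, the platelet form, at 6.26, 4.07, 3.91 and 2.30. The share of the step held by *Pfkl* was thus 29.4% in GV, 43.7% in MII and 41.7% and 61.6% under TubA-10 and TubA-20, while that of *Pfkm* in TubA-20 was 5.96%.

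The steps that split the sugar and interconvert its products had the lowest log2 ratios of all 36 genes in TubA-20 against GV (−3.71 for *Aldoa* and −3.66 for *Tpi1*). *Aldoa*, the main aldolase (chr7:126795234-126800751, minus strand), was at 194 FPKM in GV, 38.3 in MII and 45.4 and 13.9 under TubA-10 and TubA-20. Of the 36 genes only *Ldhb* stood above it in GV, and its FPKM, with no pseudocount, was 5.07-fold lower in MII and 14.0-fold lower in TubA-20, both against GV. *Tpi1*, triose-phosphate isomerase (chr6:124810586-124814296, minus strand), was at 53.5, 6.56, 12.6 and 3.32 FPKM, 8.15-fold lower in MII and 16.1-fold lower in TubA-20 by FPKM with no pseudocount, both against GV. *Aldoc*, the brain aldolase, was at 0.290 FPKM in GV and 0.0419 to 0.0436 elsewhere.

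The 5 enzyme genes of the payoff phase were within 2-fold of GV in MII and in TubA-10 on the deposited scale. *Gapdh*, the glyceraldehyde-3-phosphate dehydrogenase (chr6:125161715-125166467, minus strand), was at 52.6 FPKM in GV, 44.9 in MII and 43.7 and 50.1 under TubA-10 and TubA-20. The ratio of *Aldoa* to *Gapdh* was 3.69 in GV, 0.852 in MII and 1.04 and 0.278 under TubA-10 and TubA-20, so *Aldoa* was below *Gapdh* in MII and TubA-20. *Pgk1*, which makes the first ATP, was at 17.1, 9.40, 14.1 and 11.0 FPKM. *Pgam1*, the mutase, stayed between 0.883 and 1.61. *Eno1*, enolase, was at 28.4 FPKM in GV, 14.7 in MII and 19.0 and 11.5 under TubA-10 and TubA-20. *Pkm*, the pyruvate kinase that closes glycolysis, was at 109.9 FPKM in GV, 55.6 in MII and 81.5 and 27.8 under TubA-10 and TubA-20. Both were lower than GV in TubA-20, with log2 ratios of −1.23 for *Eno1* and −1.94 for *Pkm*. With the median log2 ratio of all genes set to 0 they also passed 2-fold in MII, at −1.03 and −1.10.

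The 2 lactate dehydrogenase genes moved apart. *Ldha*, the muscle-type subunit, was at 3.25 FPKM in GV, 0.487 in MII and 0.310 and 0.584 under TubA-10 and TubA-20, which is a log2 ratio of −1.51 for MII against GV. *Ldhb* had log2 ratios of 0.82, 0.80 and 0.99 against GV in MII, TubA-10 and TubA-20, under 2-fold in each. The ratio of *Ldhb* to *Ldha* was 1070 in GV, 12600 in MII and 19600 and 11800 under TubA-10 and TubA-20, where the last 3 values rest on an *Ldha* level under 1 FPKM. *Ldha* held 0.0932% of the step in GV and 0.0051% to 0.00845% in the cultured libraries.

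The genes for pyruvate entry and its oxidation to acetyl-CoA were on none of the lists of called genes. *Mpc1* and *Mpc2*, the carrier subunits, were at 112, 124, 157 and 159 FPKM and at 121, 92.5, 112 and 86.8 FPKM. Their ratio was 0.927 in GV, 1.34 in MII and 1.41 and 1.84 under TubA-10 and TubA-20. In the pyruvate dehydrogenase complex, *Pdha1* of the first enzyme was at 18.1, 17.8, 14.4 and 11.97 FPKM and its partner *Pdhb* at 32.1, 35.9, 44.4 and 36.3. *Dlat*, the acetyltransferase core, was at 11.8, 11.0, 10.8 and 8.97 FPKM. *Dld*, the dihydrolipoamide dehydrogenase shared with the oxoglutarate dehydrogenase complex, was at 59.7 FPKM in GV, 38.6 in MII and 59.5 and 37.0 under TubA-10 and TubA-20, with GV and TubA-10 on one level and MII and TubA-20 on another. Each of these 6 genes was within 2-fold in all 6 comparisons.

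At the start of the cycle, the subunit genes of 1 enzyme differed in direction. *Cs*, which makes citrate, was at 68.3 FPKM in GV, 72.1 in MII and 78.2 and 88.5 under TubA-10 and TubA-20. The NAD-dependent isocitrate dehydrogenase is built from a catalytic subunit (*Idh3a*) and from *Idh3b* and *Idh3g*. *Idh3a* (chr9:54586334-54604661, plus strand) was at 45.0, 82.2, 96.0 and 83.7 FPKM and was called higher than GV in TubA-10, with a log2 ratio of 1.07, the only such call among the 36 genes on the deposited scale with a pseudocount of 1. It dropped to 0.93, under 2-fold, with the median log2 ratio of all genes set to 0, and other settings called other genes higher (*Hk2* in MII with a pseudocount of 0.1, *Ldhb* and *Suclg2* in MII with equal *Gapdh*). *Idh3b* (chr2:130279309-130284547, minus strand) was at 10.6, 3.67, 3.91 and 0.911 FPKM, and *Idh3g* (chrX:73778963-73786897, minus strand) at 33.3, 5.64, 7.46 and 2.87.

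*Idh3a* thus parted from *Idh3b* and *Idh3g*, which were both lower than GV in each cultured library. The ratio of *Idh3a* to *Idh3b* was 4.25 in GV, 22.4 in MII and 24.6 and 91.8 under TubA-10 and TubA-20, and that of *Idh3a* to *Idh3g* 1.35, 14.6, 12.9 and 29.1. The NADP-dependent enzymes differed in level. The cytosolic *Idh1* was at 9.17, 9.96, 10.5 and 14.1 FPKM, and the mitochondrial *Idh2* was under 1 FPKM in each library, from 0.966 in GV to 0.245 in TubA-20.

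In the oxoglutarate dehydrogenase complex, *Ogdh*, the first enzyme, was at 11.2 FPKM in GV, 16.8 in MII and 13.5 and 20.8 under TubA-10 and TubA-20. *Dlst*, the succinyltransferase core (chr12:85110833-85134845, plus strand), was at 23.3, 10.9, 15.1 and 4.35. The ratio of *Ogdh* to *Dlst* was 0.48 in GV, 1.54 in MII and 0.898 and 4.77 under TubA-10 and TubA-20. In succinyl-CoA synthetase, *Suclg1* encodes the shared α-subunit, and *Sucla2* and *Suclg2* the β-subunits of the ADP- and GDP-forming enzymes. *Suclg1* was at 31.3, 16.1, 22.4 and 22.4 FPKM, *Sucla2* at 57.4, 27.7, 38.3 and 16.4, and *Suclg2* at 8.65, 16.8, 14.2 and 17.9. *Sucla2* was 6.63 times *Suclg2* in GV, 1.64 times in MII, and 2.70 and 0.918 times under TubA-10 and TubA-20, the last being where the order of both was turned.

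The end of the cycle was lower in every cultured library. *Fh1*, fumarase, was at 133 FPKM in GV, 43.7 in MII and 56.2 and 52.7 under TubA-10 and TubA-20, and its 3 cultured values lay close together. *Mdh2*, the mitochondrial malate dehydrogenase (chr5:135778480-135790398, plus strand), was at 168, 46.6, 65.0 and 18.1 FPKM. *Mdh1*, the cytosolic form that works with it in the malate-aspartate shuttle, was at 57.6, 93.9, 75.2 and 92.5. The ratio of *Mdh2* to *Mdh1* was 2.92 in GV, 0.496 in MII and 0.864 and 0.196 under TubA-10 and TubA-20.

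**Figure D2:**
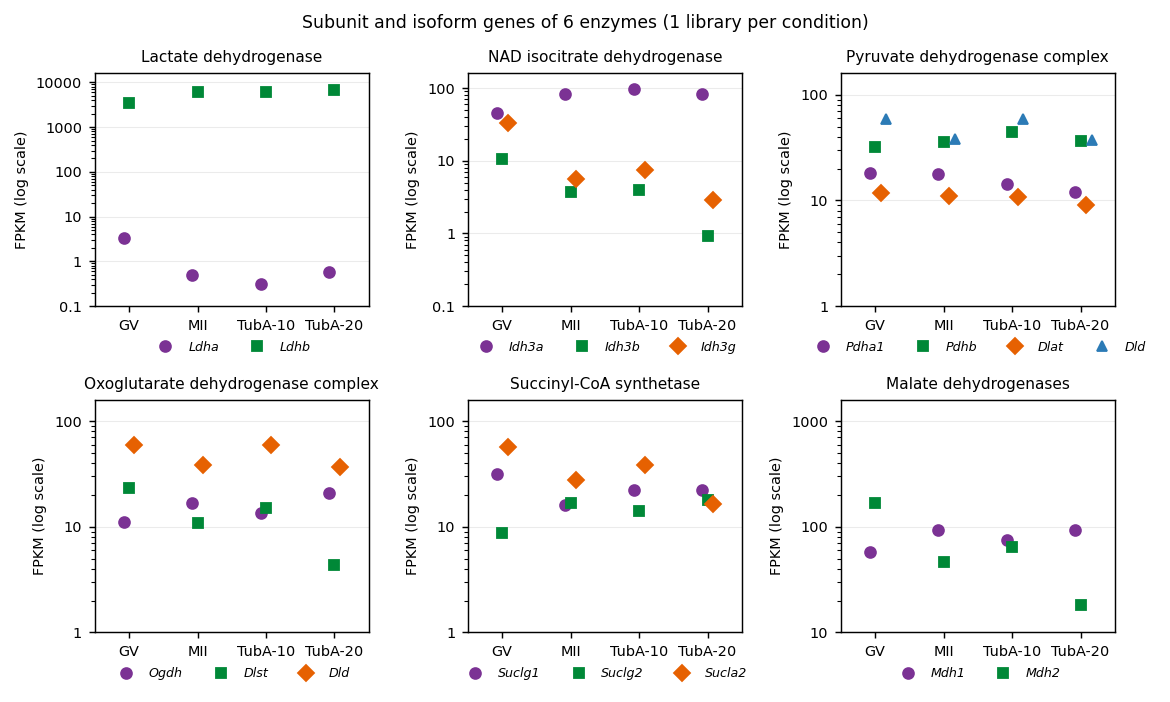
FPKM (log axis) of the genes of 6 enzymes by library, with 1 point per gene and library. *Idh3a* lies above *Idh3b* and *Idh3g* by more in the cultured libraries than in GV, and *Mdh2* is above *Mdh1* in GV and below it in the other 3 libraries.

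For maturation without TubA, 10 of the 36 genes (27.8%) were lower in MII than in GV and 0 were higher, beside 16.8% of background genes lower and 6.14% higher. The 10 were *Pfkm*, *Aldoa*, *Tpi1* and *Ldha* of glycolysis and *Idh3b*, *Idh3g*, *Dlst*, *Sucla2*, *Fh1* and *Mdh2* of the TCA cycle. *Dlst* and *Sucla2*, both at −1.03, dropped under 2-fold at equal FPKM sums, equal upper quartiles and equal *Gapdh*. *Gpi1*, at −0.98, passed 2-fold lower with pseudocounts of 0.1 and 0.01 and with the median log2 ratio of all genes set to 0. The median log2 ratio was −0.35 over the 36 genes, −0.66 over the 16 cytosolic glycolytic genes and −0.35 over the 18 mitochondrial genes, beside 0.04 over background genes. The largest log2 ratios on the higher side were 0.88 for *Suclg2*, 0.85 for *Idh3a*, 0.82 for *Ldhb* and 0.70 for *Mdh1*. The split depends on the scaling, and with *Gapdh* set equal in all libraries 3 were higher and 8 lower, and with equal FPKM sums 1 was higher and 8 lower. With the median log2 ratio of all genes set to 0, 0 were higher and 14 lower, and pseudocounts of 0.1 and 0.01 each gave 1 higher and 12 lower. Background shares were not computed under these scalings and pseudocounts, so these counts have no share of all genes beside them.

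Against GV, TubA-10 had 8 genes lower (22.2%) and *Idh3a* higher, beside 11.3% and 1.5% of background genes. The 8 were *Gpi1*, *Aldoa*, *Tpi1*, *Ldha*, *Idh3b*, *Idh3g*, *Fh1* and *Mdh2*, and the medians were −0.37 for the cytosolic and −0.21 for the mitochondrial genes. TubA-20 had 14 genes lower (38.9%) and 0 higher, beside 23.6% and 15.3% of background genes. Of its 14, 8 were cytosolic (*Gpi1*, *Pfkm*, *Pfkp*, *Aldoa*, *Tpi1*, *Eno1*, *Pkm*, *Ldha*) and 6 mitochondrial (*Idh3b*, *Idh3g*, *Dlst*, *Sucla2*, *Fh1*, *Mdh2*), with medians of −0.87 and −0.51. With equal *Gapdh*, TubA-10 had 2 higher and 7 lower (0 and 9 with the median log2 ratio of all genes set to 0) and TubA-20 2 higher and 14 lower. Background shares were not computed under these scalings either. The 3 comparisons share the GV library.

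The TubA libraries were then set against MII oocytes, cultured for the same time. TubA-10 against MII had 0 of the 36 genes lower and 0 higher, beside 0.257% and 1.04% of background genes, and the log2 ratios ran from −0.56 for *Gpi1* to 0.85 for *Tpi1*. TubA-20 against MII had 5 genes lower (13.9%) and 0 higher, beside 4.92% and 0.661% of background genes. They were *Aldoa* (−1.40), *Gpi1* (−1.32), *Mdh2* (−1.32), *Idh3b* (−1.29) and *Dlst* (−1.15), 2 cytosolic and 3 mitochondrial. *Pkm*, at −0.97, lay just inside 2-fold and passed it under 3 of the scalings tried. *Ldhb*, *Cs*, *Idh3a* and *Mdh1* had log2 ratios of 0.17, 0.29, 0.02 and −0.02 in the same comparison. The median over the 36 genes was 0.09 for TubA-10 and −0.05 for TubA-20, beside 0.01 and 0.00 for background genes.

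**Figure D3:**
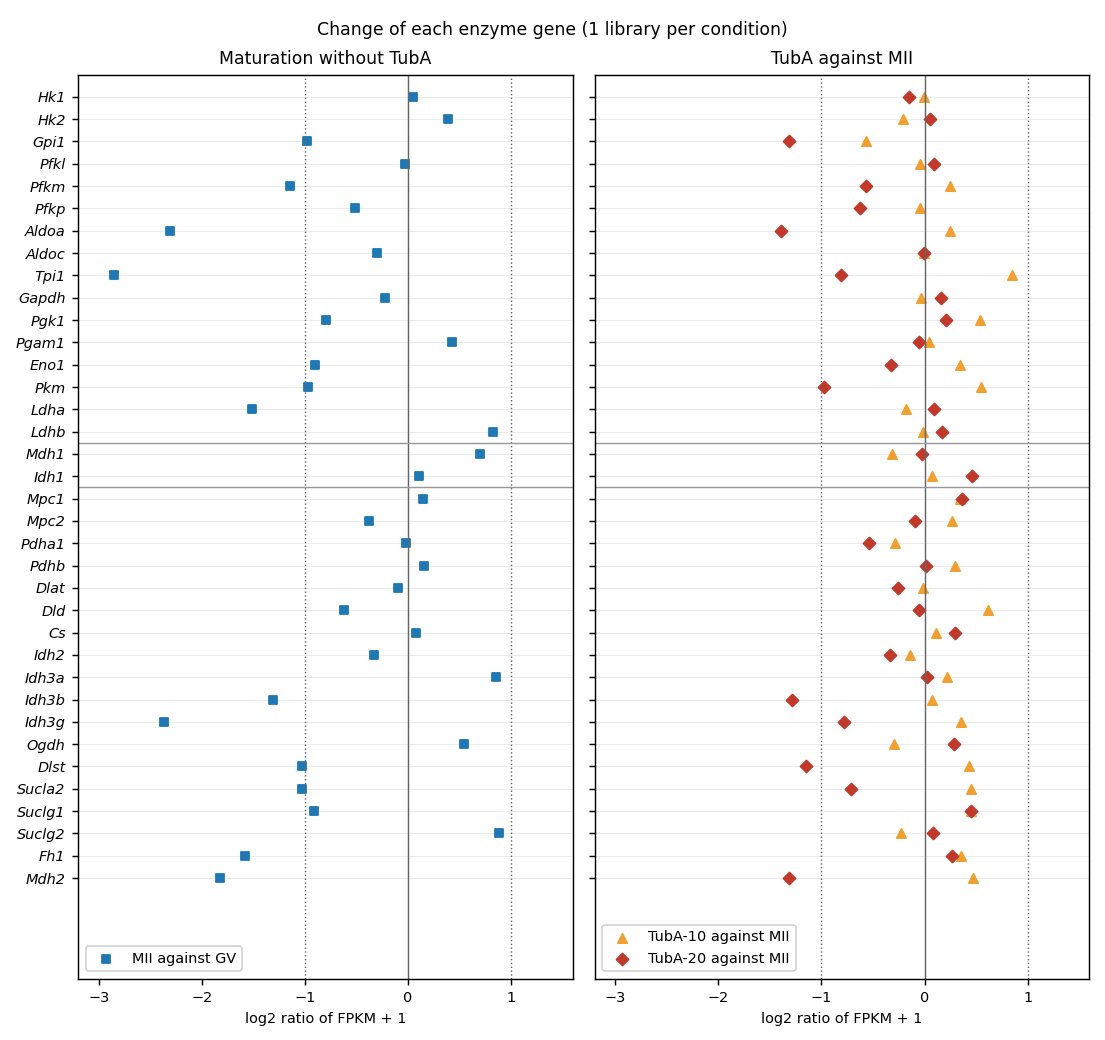
Log2 ratio of FPKM + 1 for each of the 36 genes, with MII against GV on the left and TubA-10 and TubA-20 against MII on the right, and dotted lines at 2-fold. On the right the TubA-10 points lie between −0.56 and 0.85, and the TubA-20 points of *Aldoa*, *Gpi1*, *Mdh2*, *Idh3b* and *Dlst* lie left of the 2-fold line.

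Between the doses, TubA-20 had 8 genes lower than TubA-10 (22.2%) and 0 higher, beside 11.1% and 1.33% of background genes. They were *Mdh2* (−1.79), *Tpi1* (−1.66), *Aldoa* (−1.64), *Dlst* (−1.59), *Pkm* (−1.52), *Idh3b* (−1.36), *Sucla2* (−1.17) and *Idh3g* (−1.13). For each of these 8 the MII value lay between both doses, with TubA-10 above MII and TubA-20 below it. By the step between low values TubA-10 was deeper than TubA-20, and the part of depth in these values was not tested.

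The glycolytic and the mitochondrial steps were set against each other by their medians. The cytosolic median minus the mitochondrial median was −0.30 (MII), −0.16 (TubA-10) and −0.35 (TubA-20) against GV, −0.29 and −0.02 for TubA-10 and TubA-20 against MII, and 0.01 for TubA-20 against TubA-10. Each group spanned more than this difference. Against GV in MII the cytosolic genes ran from −2.85 (*Tpi1*) to 0.82 (*Ldhb*) and the mitochondrial genes from −2.37 (*Idh3g*) to 0.88 (*Suclg2*). The difference between the medians depends on low genes, since over genes with at least 5 FPKM it was −0.45 for TubA-10 and −0.77 for TubA-20 against GV, −0.56 for TubA-20 against MII, and −0.43, with the sign turned, for TubA-20 against TubA-10. Pseudocounts of 0.1 and 0.01 turned the sign of the last as well, to −0.26 with each.

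**Figure D4:**
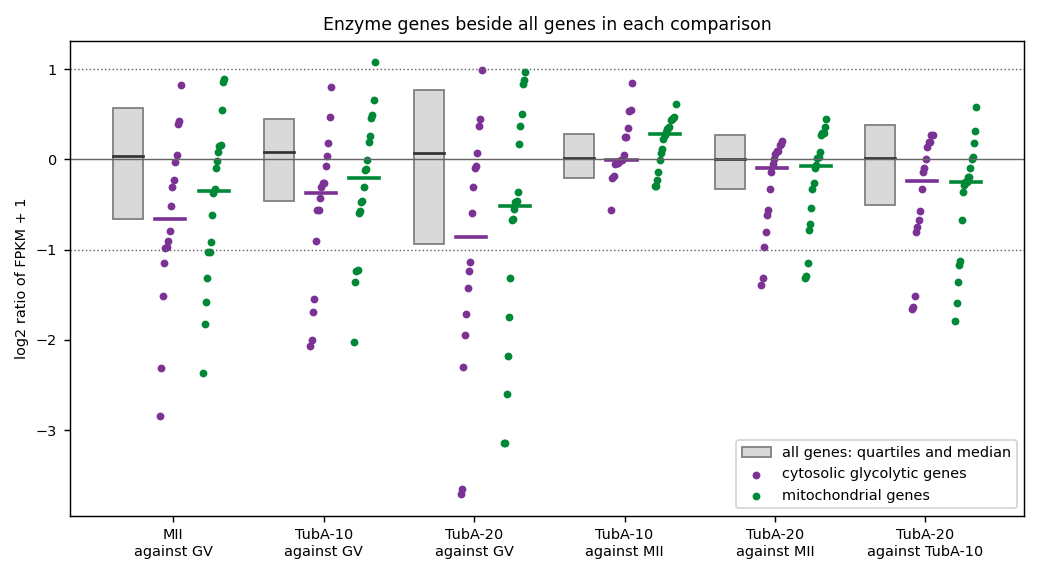
Log2 ratio of FPKM + 1 in the 6 comparisons for the 16 cytosolic glycolytic and 18 mitochondrial genes (1 point per gene, bars at the medians), beside the quartiles and median of all background genes (grey boxes), with dotted lines at 2-fold. Both groups spread over most of the same range in each comparison, with the lowest points in TubA-20 against GV at −3.71 (*Aldoa*) and −3.66 (*Tpi1*).

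Genes of the same pathways outside the 36 were described from a list of 68, of which 45 reached 1 FPKM in at least one library. The other 23 stayed under 1 FPKM in every library and so could not pass 2-fold on FPKM + 1. Every called gene was thus among the 45, and shares over the 68 are lower than shares over those 45. The background leaves such low genes out, so nearness of these shares to the background is not read as a result. From GV to MII 12 were lower (17.6%) and 0 higher, with a median log2 ratio of −0.03, beside 16.8% and 6.14% of background genes. TubA-20 against MII had 3 lower, among them *Ldhc* and *Slc25a1*, and 0 higher (4.41%, beside 4.92% of background genes lower). TubA-10 against MII had 1 higher (1.47%), *Sdhd* at 1.10, and 0 lower, beside 1.04% and 0.257% of background genes. *Aco1*, a cytosolic enzyme that acts on citrate, was at 16.1, 7.54, 13.1 and 3.90 FPKM. Succinate dehydrogenase, a TCA step that the 36 genes leave out, was on this list. Of its subunits, *Sdhb* was at 153, 52.5, 71.9 and 28.8 FPKM and *Sdhd* at 147, 41.0, 89.2 and 30.1, and the assembly factor *Sdhaf1* at 9.80, 2.41, 3.96 and 1.45. The remaining subunit genes, like *Slc25a1*, are not among the 10 taken by the naming rule. They are given so that the whole enzyme is seen. *Sdha*, the catalytic subunit, was at 47.1, 47.6, 48.9 and 63.2 FPKM, highest in TubA-20, and *Sdhc* at 61.3, 25.7, 42.2 and 33.0, lowest in MII.

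Of the others that the naming rule took up, *Ldhc*, the germ-cell lactate dehydrogenase, was at 18.3 FPKM in GV, 11.5 in MII and 9.47 and 2.85 under TubA-10 and TubA-20. It was taken up for its log2 ratio of −1.70 for TubA-20 against MII. *Ldhd*, the D-lactate dehydrogenase, was at 9.70, 3.70, 5.35 and 2.85 FPKM, and *Fbp1*, the fructose bisphosphatase of gluconeogenesis, at 69.7, 23.5, 34.6 and 17.5. *Lipt1*, which transfers lipoic acid to dehydrogenase complexes, was at 66.4, 20.5, 23.7 and 20.8 FPKM, and *Got2*, the mitochondrial aspartate aminotransferase, at 15.8, 6.97, 9.03 and 4.94. The naming rule took genes past 2-fold in MII against GV or in TubA-20 against MII and ranked them by TubA-20 against GV, so these 3 comparisons of the named genes are largely set by that choice. In TubA-20 against GV 16 of the 68 were lower (23.5%) and 4 higher (5.88%), beside 23.6% and 15.3% of background genes. Every called gene was among the 45 that reached 1 FPKM, so these shares over the 68 are low beside the background. The 4 higher genes are named after their values were seen. *Pdk1* and *Pdp1*, a kinase and a phosphatase of pyruvate dehydrogenase, had log2 ratios of 1.03 and 1.22, *Adpgk*, an ADP-dependent glucokinase, 1.19, and *Pgm2*, a phosphoglucomutase, 1.04.

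Length was a property that the choice of genes did not use. Across the 36 genes Spearman's coefficient between the log2 ratio of MII against GV and the length of the annotated 3′ UTR was 0.391, and across 10848 coding background genes it was 0.313. With coding length the coefficients were 0.01 and 0.296, and with transcript length 0.258 and 0.384. For TubA-10 against MII they had the opposite sign with transcript length, at −0.414 and −0.356, and for TubA-20 against MII they were 0.029 and 0.108. These describe genes within the same pair of libraries, which share their depth and normalization and are not independent replicates.

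Some of the genes have near copies in the genome with which reads could be shared. At 95% identity over at least 50% of the transcript, *Gapdh* had 71 such genes in GENCODE vM21, *Eno1* had 3, *Pgk1* and *Ldha* had 2 each, and *Pkm*, *Ldhb* and *Pdhb* had 1 each, so the levels of these 7 are less certain. The other 29 genes had 0. Of the copies of *Gapdh* that the table lists, none exceeded 0.073 FPKM.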

How the data were processed

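The authors deposited 1 table of FPKM values, made per the labels and the study's methods with STAR 2.5.0 and Cufflinks/Cuffdiff 2.2.1 on mm10 from oligo(dT)-selected stranded libraries, so the deposited values were already divided by transcript length and mapped fragments. The labels name TRIzol and the paper another extraction kit. The title of the MII sample calls it an embryo. Entries carry Ensembl identifiers, although a UCSC gene model is named in the methods. Of 21959 entries 21794 were given a symbol by identifier, and entries sharing a symbol were summed. The members and lists were chosen with earlier results of these data known.

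Log2 ratios used a pseudocount of 1 FPKM. Calls are ratios past 2-fold, with no test and no p-value, since each of the 4 conditions had 1 library. The table holds no read counts, and the read totals stated in the paper were not used in any computation. All 36 genes are named. Of the 68 further pathway genes, those with at least 5 FPKM in one library and past 2-fold in MII against GV or TubA-20 against MII could be named, at most the 10 largest by change in TubA-20 against GV. Of the 14 that met this the 10 largest were taken, and some items are not reported here. Coordinates and tails come from GENCODE vM21 (GRCm38) and near copies from blastn 2.17.0. Alternatives were pseudocounts of 0.1 and 0.01, filters, 4 scalings, a 3-fold threshold and the highest entry per symbol. Software was Python 3.11.15 with matplotlib 3.10.9, scipy 1.17.1, pandas 2.3.3 and numpy 2.4.6, and scripts were tested on simulated data.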

Additional observations from a re-analysis of the deposited data

How the results depend on the processing

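No paired analysis was possible because each condition had 1 library, and for the same reason no library could be left out. Of 1512 values of single members under 7 alternatives, 0 called ones reversed and 54 crossed 2-fold. Scaling moved the median of 9193 genes by −0.13 to −0.19 against GV when it was set to 0 and by 0.20 (MII against GV) and 0.23 (TubA-10 against GV) with equal *Gapdh*. For TubA-20 against MII it moved by −0.13 at equal sums, −0.11 at equal upper quartiles and −0.14 with equal *Gapdh*, and in these 3 settings *Pkm* passed 2-fold lower (−1.12, −1.09 and −1.13). *Dlst* and *Sucla2* dropped under 2-fold for MII against GV there. *Ldhb* passed 2-fold higher against GV in each cultured library with equal *Gapdh*. The cause of these shifts was not tested.

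The number of members higher in MII than in GV became 1 with pseudocounts of 0.1 or 0.01 and at equal sums, and 3 with equal *Gapdh*. For TubA-20 against GV it became 2 with either pseudocount and with equal *Gapdh*, and for TubA-10 against GV it became 2 with equal *Gapdh* and 0 with a median of 0 or a 3-fold threshold. At 3-fold, 5 members were lower in MII and 4 in TubA-10 than in GV, 0 in TubA-20 than in MII and 4 in TubA-20 than in TubA-10. Background shares are given only at 2-fold, on the deposited scale and with a pseudocount of 1. The counts of this paragraph under other thresholds, scalings or pseudocounts therefore have no share of all genes beside them. A pseudocount of 0.01 gave 8 lower in TubA-20 than in MII. The cytosolic minus mitochondrial difference for TubA-20 against GV was −0.82 and −1.17 with pseudocounts of 0.1 and 0.01. For TubA-20 against TubA-10 it reversed to −0.26 with both (−0.256 and −0.258). With members of at least 5 FPKM it was −0.45 for TubA-10 against GV, −0.77 for TubA-20 against GV, −0.56 for TubA-20 against MII and −0.43, reversed, for TubA-20 against TubA-10. The mitochondrial median of TubA-10 against GV reversed to 0.0373 with equal *Gapdh*.

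With no filter on low values the background shares, higher and lower, were 3.05% and 8.34% for MII, 0.742% and 5.6% for TubA-10 and 7.61% and 11.7% for TubA-20 against GV, 0.515% and 0.128% for TubA-10 and 0.328% and 2.44% for TubA-20 against MII, and 0.66% and 5.52% for TubA-20 against TubA-10. At 10 FPKM the higher share was 9.22% for MII against GV, 22.5% for TubA-20 against GV and 0.424% for TubA-20 against MII. The lower share at 10 FPKM was 21.5% (MII), 14.7% (TubA-10) and 27.4% (TubA-20) against GV, 7.15% for TubA-20 against MII and 16% for TubA-20 against TubA-10. These lower shares were nearer to those of the members than at 1 FPKM. The higher shares for MII and TubA-20 against GV were farther from the members, of which 0 were higher in these comparisons.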
